A study of Mus musculus with 8 samples.

Results

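The cluster of miR-143 and miR-145a encodes a pair of microRNA hairpins that are processed from 1 primary transcript, and each hairpin gives a 5p and a 3p mature arm. Its members were taken by name, as mmu-miR-143-3p, mmu-miR-143-5p, mmu-miR-145a-5p and mmu-miR-145a-3p (written without the prefix from here on), and all 4 were found among the 697 miRNAs counted in the small RNA libraries. The libraries came from cardiomyocytes isolated by Langendorff perfusion from 4 sham-operated mice and from 4 mice with transverse aortic constriction (TAC), a surgical pressure overload of the left ventricle that leads to heart failure. The mice were male, were operated at an age of 2 months and were sampled 14 weeks after surgery (the methods also call them 14-week-old), and the methods and labels name no strain and no transgene. Each library holds RNA from part of the isolated myocytes of 1 heart, so the 4 libraries of a group stand for separate animals. No sorting step that would remove vessel wall cells is described. From mRNA sequencing of such preparations, the study reports very low levels of fibroblast markers. It concludes that a large share of nonmuscle cells, fibroblasts in particular, had been taken out.

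miR-143 and miR-145a are known as the miRNAs of contractile vascular smooth muscle, where serum response factor and myocardin drive their shared transcript and where they repress regulators such as Klf4, Klf5 and Elk1 that favour the proliferative state. In adult hearts the pair is best known from the walls of coronary vessels. In most miRNA hairpins 1 arm is loaded into Argonaute as the guide while the other, the passenger arm, is mostly degraded, and miR-143-3p and miR-145a-5p are the arms usually taken as guides.

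All levels that follow depend on how the libraries are scaled, and the study takes miR-126a-3p and miR-19b-3p as references. The mature sequences of both are shown because every reference-scaled value of the cluster rests on their counts. They were taken from RefSeq (GRCm38.p6) and are written 5′ to 3′ with the seed, bases 2 to 8, in capitals; miR-126a-3p lies at chr2:26591402-26591423 on the plus strand, and miR-19b-3p has copies at chr14:115044358-115044380 on the plus strand and chrX:52741991-52742013 on the minus strand.
miR-126a-3p: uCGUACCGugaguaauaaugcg
miR-19b-3p: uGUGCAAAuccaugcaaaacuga

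In the build named by the labels, mm10 (GRCm38), both hairpins lie on the minus strand of chromosome 18. Mir143 spans chr18:61649196-61649258 (63 bases) and Mir145a spans chr18:61647825-61647894 (70 bases), with 1301 bases between them. In the GENCODE vM21 annotation both are stand-alone miRNA genes, and the lincRNA Carmn on the same strand ends 366 bases from Mir143. The RefSeq annotation of GRCm38.p6 has a longer Carmn model, from 61645878 to 61665538, which contains both hairpins. A related mouse hairpin, Mir145b, lies on the same chromosome at chr18:69022199-69022273 and has no entry in the count tables.

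The libraries held 4005668 to 5392576 miRNA counts in sham and 5507169 to 7798943 in TAC. Levels are given as counts per 1000000 miRNA counts (CPM). For reference-scaled CPM, the TAC values were divided by 0.537, which is how far both reference miRNAs together (as a geometric mean) stood in TAC relative to sham. By library totals miR-126a-3p averaged 39017 ± 10588 CPM for sham and 22483 ± 1313 CPM for TAC, and miR-19b-3p averaged 213 ± 36.4 CPM for sham and 107 ± 21.4 CPM for TAC (both SD, n = 4), so this scaling adds 0.90 to every log2 fold change. The methods chose both miRNAs as unaltered by QPCR, which is not analysed here, and miR-126a-3p is also known as an endothelial miRNA.

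miR-143-3p was among the most abundant miRNAs of these cardiomyocyte preparations, at rank 10 or 11 of every sham library and rank 10 to 13 of the TAC libraries. In sham it held 3.60% ± 0.264 of all miRNA counts, and in TAC 3.34% ± 0.145 (both SD, n = 4). Within the cluster it took 86.7% to 88.9% of the counts of the 4 arms in every library. miR-145a-5p followed with 4.31% to 7.21%, miR-145a-3p with 3.63% to 4.99%, and miR-143-5p was the least abundant arm with 1.39% to 2.14%. The order of the 4 arms was the same in 6 of the 8 libraries; in TAC mouse 2 and TAC mouse 3, miR-145a-3p stood above miR-145a-5p.

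In CPM by library total, miR-143-3p had 33579, 34760.2, 39680.1 and 36121 in sham mice 1 to 4 and 34443, 31302, 33889 and 34165 in TAC mice 1 to 4. Sham mouse 3 was the highest and TAC mouse 2 the lowest, and the groups overlapped (exact two-sided permutation test, p = 0.171, where 4 libraries against 4 allow no p under 0.0286). By library totals 3.59% of the tested miRNAs had every TAC library above sham and 27.4% had every one below. After the reference scaling the TAC libraries had 64161, 58311, 63129 and 63643 CPM, all above the sham libraries. That scaling put every TAC library above sham in 54.7% of the tested miRNAs.

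The other guide arm, miR-145a-5p, had 2095, 2687, 2884 and 2988 CPM in sham mice 1 to 4, and by the same totals 2360.4, 1607, 1643 and 2311 in TAC mice 1 to 4. Sham mouse 1 lay inside the TAC range and the remaining sham mice lay above every TAC mouse (exact permutation test, p = 0.0857). Its reference-scaled TAC values were 4397, 2994, 3059.7 and 4305 CPM, of which TAC mouse 2 stood just above the highest sham library.

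miR-145a-3p, usually taken as the passenger, had 1711, 1811, 1634 and 1659 CPM in sham and 1589.6, 1656, 1900.5 and 1765 in TAC. The groups overlapped (exact permutation test, p = 0.800). The reference scaling moved the TAC values to 2961, 3084, 3540.4 and 3287 CPM. miR-143-5p had 731, 854, 842 and 662 CPM in sham and 787, 757, 682 and 537 in TAC (exact permutation test, p = 0.314), and 1466, 1409, 1270.1 and 1001 after the scaling. Its TAC mouse 4 was the lowest of all 8 libraries by library totals and the nearest to the sham libraries after the scaling.

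**Figure D1:**
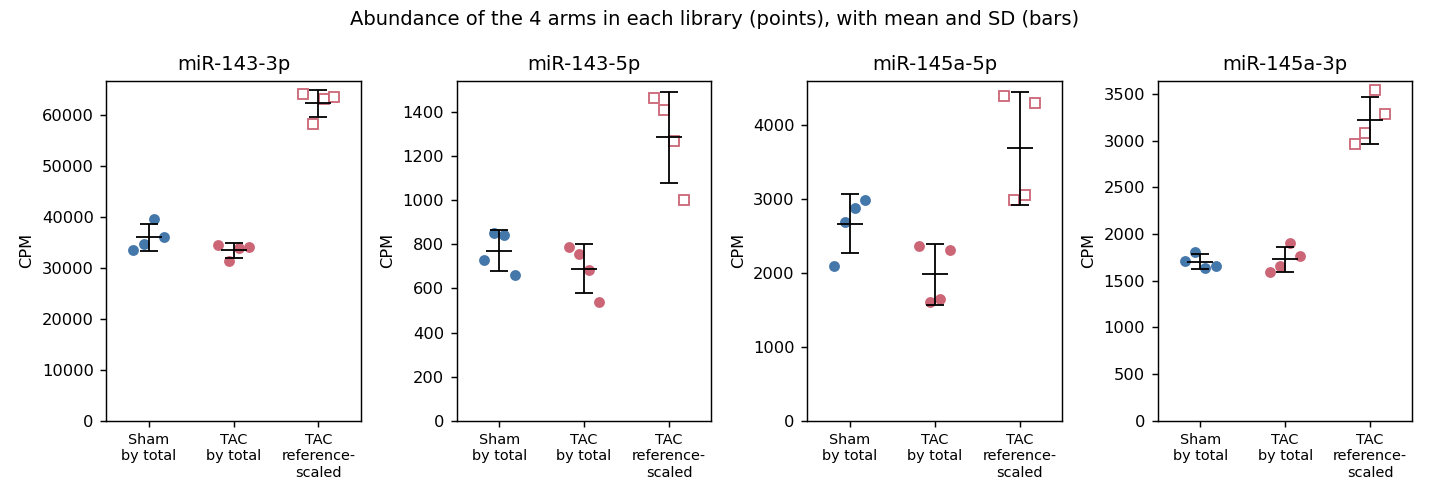
Abundance of each arm (CPM, linear axes from 0) in the 4 sham and 4 TAC libraries by library total (filled circles) and in the TAC libraries after reference scaling (open squares); bars give the mean and SD, and sham values are the same under both scalings. By library totals the groups overlap in every panel. After reference scaling no TAC library falls into the sham range, with miR-145a-5p of TAC mice 2 and 3 (2994 and 3059.7 CPM) closest to sham. Over all tested miRNAs, 54.7% have every TAC library above sham after this scaling.

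At these depths counting error was small beside the spread between animals. The lowest count of any arm, 2651 for miR-143-5p in sham mouse 4, corresponds to 662 CPM with a 95% Wilson interval from 637 to 687 CPM, which covers counting error only. The coefficient of variation of miR-143-3p was 7.33% in sham and 4.33% in TAC, ranks 18 and 8 from the lowest of 223 miRNAs with a mean above 100 counts, whose medians were 17.1% and 15.3%. miR-145a-3p was similarly even, with 4.60% and 7.87%. miR-145a-5p varied more, with 15.0% in sham and 20.8% in TAC, although it is cut from the same hairpin as miR-145a-3p.

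With the reference scaling, all 4 arms were higher in TAC cardiomyocytes at an adjusted p below 0.05 in edgeR's quasi-likelihood F test, where 63.7% of the 223 tested miRNAs were higher at that threshold. For miR-145a-3p the log2 fold change was 0.92 ± 0.11 (SE; edgeR, adjusted p = 1.44e-04), or 1.89-fold. miR-143-3p stood at 0.79 ± 0.090 (SE; edgeR, adjusted p = 1.27e-04), or 1.73-fold. Both passed the fold change of 1.7 that the study requires, so that 2 of 4 arms were called higher and 0 lower, against 36.8% and 0.897% of all tested miRNAs. miR-143-5p had 0.74 ± 0.16 (SE; edgeR, adjusted p = 0.00298) and miR-145a-5p 0.47 ± 0.17 (SE; edgeR, adjusted p = 0.0373), fold changes of 1.67 and 1.38 that lay under 1.7.

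These tests take the scaling factor as known. When the factor was recomputed for each arrangement of the libraries, two-sided exact permutation tests gave p = 0.0286 for miR-143-3p and for miR-145a-3p, 0.0571 for miR-143-5p and 0.0857 for miR-145a-5p. After the scaling no TAC library overlapped the sham range in any arm, as in 54.7% of all tested miRNAs with TAC above and 0.448% with TAC below. miR-143-3p dropped under the fold change of 1.7 without sham mouse 2 (log2 fold change 0.69), sham mouse 3 (0.76) or TAC mouse 3 (0.77), and miR-143-5p rose over it without sham mouse 1 (0.83) or TAC mouse 4 (0.89). The adjusted p of miR-145a-5p lay above 0.05 without sham mouse 2 (0.116), sham mouse 3 (0.102), TAC mouse 1 (0.101) or TAC mouse 4 (0.0583). It also did so in edgeR with 1 reference factor per library (0.0660), with miR-126a-3p alone as reference (0.0974) and with no filter on counts (0.0563).

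With the scaling, the sign of the log2 fold change turned for miR-143-3p, miR-143-5p and miR-145a-5p, but not for miR-145a-3p. By library totals, the log2 fold changes were -0.11 for miR-143-3p, -0.16 for miR-143-5p, -0.43 for miR-145a-5p and 0.020 for miR-145a-3p, and 0 of 4 had an adjusted p below 0.05 in edgeR, where 20.6% of all tested miRNAs were lower and 1.35% higher at that threshold. With the fold change of 1.7 also required, 10.3% were lower and 0.448% higher. At an unadjusted p below 0.05 in edgeR, miR-145a-5p alone was lower.

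With TMM (trimmed mean of M-values), which centres the bulk of the miRNAs, the log2 fold changes were 0.099, 0.056, -0.22 and 0.23 in the same order. Again 0 of 4 had an adjusted p below 0.05 in edgeR, where 4.93% of the tested miRNAs were higher and 8.52% lower, and 1.35% and 4.48% with the fold change of 1.7 required. DESeq2 with its own size factors also gave 0 of 4, where 8.52% were higher and 9.87% lower, and 2.24% and 4.04% with the fold change required. At an unadjusted p below 0.05, miR-145a-3p alone was higher with either tool.

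The log2 fold changes of the 223 tested miRNAs had a median of 0.61 with the reference scaling, -0.082 with TMM and -0.29 with library totals. Set against the first of these medians, miR-145a-3p lay 0.31 above, miR-143-3p 0.18 above, miR-143-5p 0.13 above and miR-145a-5p 0.14 below. miR-145a-3p ranked 168, miR-143-3p 146, miR-143-5p 136 and miR-145a-5p 77 from the lowest of 223, and with TMM these ranks moved by at most 1. With library totals they are the same by construction, since the reference scaling shifts every miRNA of TAC by 1 factor. The arms thus spread around the middle of the distribution, with 34.1% of all tested miRNAs below miR-145a-5p and 74.9% below miR-145a-3p.

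**Figure D2:**
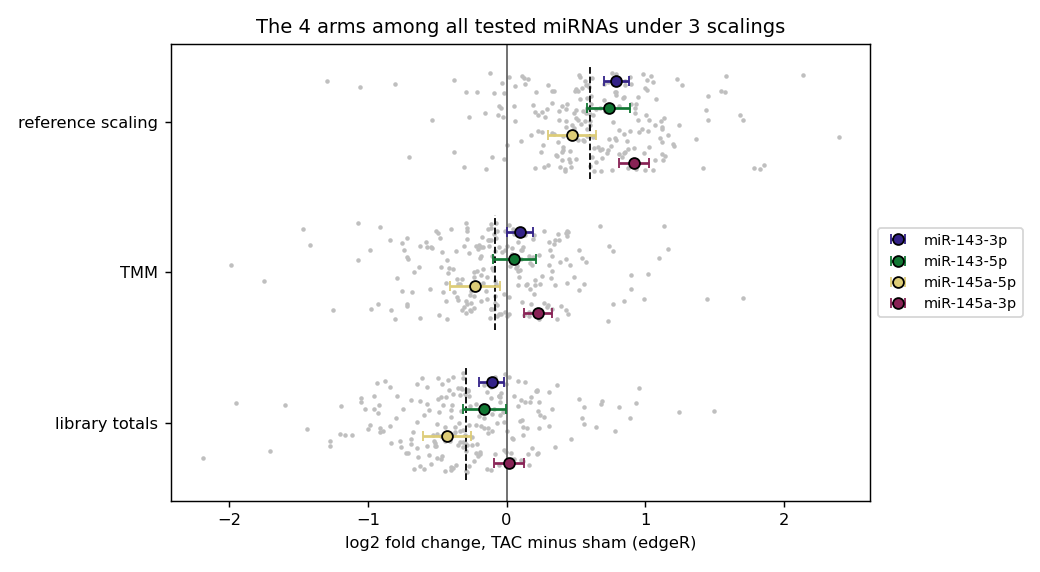
Log2 fold changes (TAC minus sham, edgeR) of the 4 arms (coloured points, bars are the standard error) and of the other tested miRNAs (grey points, spread vertically for display) under reference scaling, TMM and library totals, with the median of all 223 as a dashed line. The arms move together with the median, from 0.61 to -0.29, and miR-145a-3p stays the highest and miR-145a-5p the lowest of the 4.

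Summed over its 4 arms, the cluster took 4.12% ± 0.292 of the sham counts and 3.78% ± 0.174 of the TAC counts (both SD, n = 4). The sham libraries had 3.81%, 4.01%, 4.50% and 4.14%, and the TAC libraries had 3.92%, 3.53%, 3.81% and 3.88%. Sham mouse 1 lay among the TAC libraries, and the difference of -0.12 on the log2 scale did not pass 0.05 (p = 0.0857, exact permutation, two-sided). Without sham mouse 1 it was -0.16 with groups that did not overlap (exact permutation test, p = 0.0286, the smallest p of 3 libraries against 4). With any other library left out it did not pass 0.05 (exact permutation test, p = 0.114 to 0.229), and without sham mouse 3 it was -0.076. With all libraries kept, 27.4% of the tested miRNAs had every TAC library below sham by library totals. In reference-scaled CPM the sum averaged 41175 ± 2915 for sham and 70505 ± 3243 for TAC (both SD, n = 4), a log2 difference of 0.78 (p = 0.0286, exact permutation, factor recomputed each time).

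Ratios of counts taken within a library do not depend on the scaling, and they ask whether the arms and hairpins of the cluster changed unequally. Of the 4 ratios compared, none differed between TAC and sham beyond the spread between animals in two-sided exact permutation tests adjusted by Benjamini-Hochberg over the 4. At 4 libraries against 4, a single ratio at the smallest possible p cannot pass this adjustment.

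miR-143-3p outnumbered its passenger arm miR-143-5p 47.1 ± 5.72 times for sham and 49.6 ± 9.96 times for TAC (both SD, n = 4), with values from 40.7 to 54.6 and from 41.4 to 63.6. The groups covered nearly the same range (exact permutation test, p = 0.714, adjusted p = 0.714).

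miR-145a-5p and miR-145a-3p were counted at similar levels. Their ratio was 1.22, 1.48, 1.76 and 1.80 in sham mice 1 to 4 and 1.48, 0.971, 0.864 and 1.31 in TAC mice 1 to 4, so that the 3p arm exceeded the 5p arm in TAC mice 2 and 3 only. The log2 ratio fell by 0.46, from 0.63 ± 0.26 to 0.18 ± 0.36 (both SD, n = 4), a difference that did not pass 0.05 (exact permutation test, p = 0.143, adjusted p = 0.229). With each library left out in turn the difference ran from -0.59 to -0.33.

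Between the hairpins, miR-143-3p was 12.1 to 16.0 times as abundant as miR-145a-5p in sham and 14.6 to 20.6 times in TAC, a log2 difference of 0.33 (exact permutation test, p = 0.114, adjusted p = 0.229). Sham mouse 1, at 16.0, stood above TAC mice 1 and 4. When both arms of each hairpin were added, the ratio of miR-143 to miR-145a averaged 8.45 ± 0.621 for sham and 9.25 ± 0.643 for TAC (both SD, n = 4), a log2 difference of 0.13 (exact permutation test, p = 0.171, adjusted p = 0.229).

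**Figure D3:**
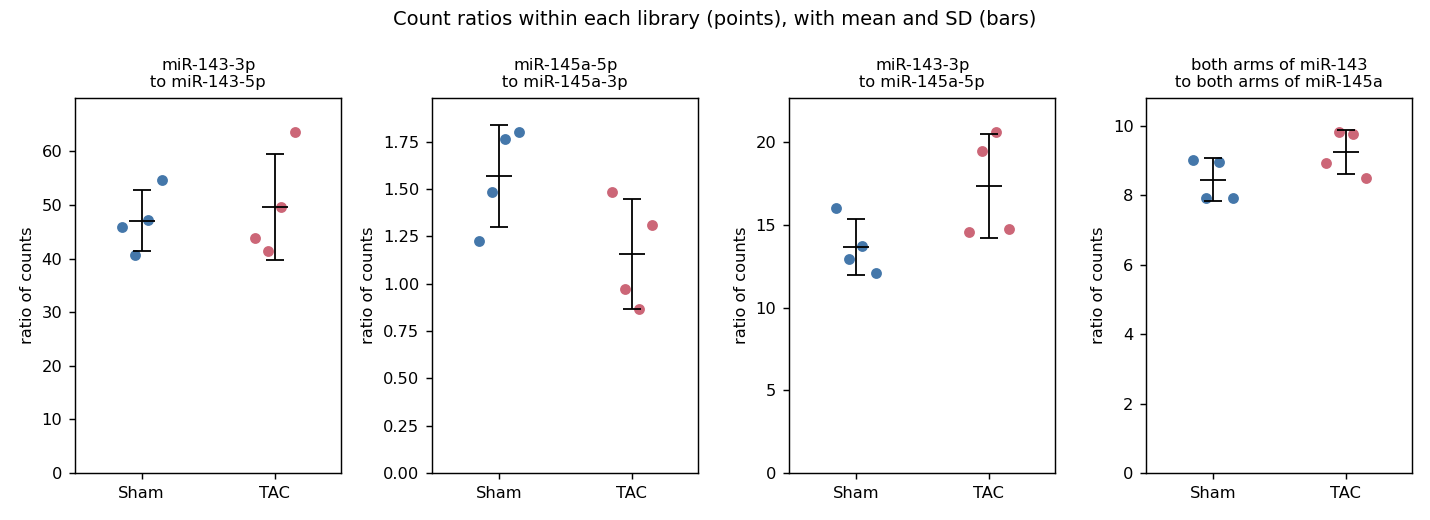
Ratios of counts within each library (linear axes from 0) for the arms of miR-143, the arms of miR-145a, both guide arms and both whole hairpins in 4 sham and 4 TAC libraries, with mean and SD. The groups overlap in every panel, and the ratio of the miR-145a arms runs from 1.22 to 1.80 in sham and from 0.864 to 1.48 in TAC.

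To place these arm ratios, the 5p-to-3p ratio was computed for each of the 43 miRNA names with both arms above a mean of 100 counts. The mean log2 ratio over the 8 libraries was 0.40 for miR-145a, the third most even of the 43, and -5.58 for miR-143, at rank 31. The median distance from equality was 3.46 on the log2 scale. miR-145a ranked 9 and miR-143 ranked 38 by the size of the TAC-to-sham difference, and both overlapped between the groups, while 9.30% of the 43 did not.

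The arms also differed in how closely they followed each other. The SD over the 8 libraries of the log2 ratio of 2 miRNAs, which is 0 for miRNAs in fixed proportion, was 0.14 between miR-143-3p and miR-145a-3p, 0.22 between both arms of miR-143, 0.27 between both guide arms and 0.38 between both arms of miR-145a. Among the 219 other tested miRNAs, the closest to miR-143-3p were miR-484 (0.091), miR-16-5p (0.12) and let-7i-5p (0.14), where the median was 0.31. For miR-145a-5p they were miR-125a-5p (0.15), miR-181a-5p (0.22) and miR-25-3p (0.23), where the median was 0.40. With the SD taken within the groups, which leaves out the TAC-to-sham difference, 2 of the 3 names stayed for miR-143-3p (miR-25-3p took the place of let-7i-5p) and 1 of the 3 for miR-145a-5p, miR-125a-5p, with let-7f-5p (0.20) and let-7b-5p (0.21) beside it. By library totals miR-125a-5p averaged 13538 ± 2147 CPM for sham and 9618 ± 1326 CPM for TAC (both SD, n = 4).

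The cluster was then set against single miRNAs known from other cells of the heart, again as within-library ratios. A bulk library cannot tell fewer cells of a type from less RNA per cell. The sum of the 4 arms relative to miR-126a-3p, the endothelial miRNA and scaling reference, was 1.48, 0.929, 0.888 and 1.14 in sham and 1.69, 1.58, 1.61 and 1.88 in TAC. No TAC library fell into the sham range, and the log2 difference was 0.63 (two-sided exact permutation test, p = 0.0286, adjusted p = 0.229 over 8 ratios). As for the arm ratios, a single ratio at the smallest possible p cannot pass the adjustment over 8. With miR-126a-3p alone as reference in edgeR, the median log2 fold change of all 223 tested miRNAs was 0.50. How many of them separate from sham relative to miR-126a-3p was not computed.

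Relative to miR-1a-3p, the most abundant miRNA of cardiomyocytes, the sum was 0.366, 0.371, 0.479 and 0.323 in sham and 0.324, 0.234, 0.227 and 0.202 in TAC. Sham mouse 4 lay just under TAC mouse 1, so the groups overlapped, and the log2 difference was -0.65 (exact permutation test, p = 0.0571, adjusted p = 0.229). miR-1a-3p itself had a log2 fold change of 1.44 with the reference scaling in edgeR, beside a median of 0.61 over all tested miRNAs. Relative to miR-133a-3p, the other major miRNA of striated muscle, it averaged 0.643 ± 0.163 for sham and 0.616 ± 0.108 for TAC (both SD, n = 4), a log2 difference of -0.038 (exact permutation test, p = 0.857, adjusted p = 0.857). The sign of this last difference turned with the library left out.

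The ratios to miR-199a-3p and miR-214-3p, known from fibroblasts and other stromal cells, differed by 0.23 and 0.19 on the log2 scale (exact permutation p = 0.286 and 0.371). RefSeq gives miR-199a-3p and miR-199b-3p the same mature sequence, so counts of the former are uncertain. Both names had the same log2 fold changes in edgeR, 0.58 with the reference scaling, -0.11 with TMM and -0.32 by library totals. For miR-221-3p, which favours smooth muscle proliferation, the difference was -0.38 (exact permutation p = 0.143), for miR-21a-5p 0.24 (p = 0.457 by the same permutation test), and for the erythroid miR-451a 1.60 (exact permutation p = 0.143). The miR-451a ratio spread most, from 112 to 441 in sham and from 236 to 2371 in TAC, the highest value being that of TAC mouse 1. Without that library the log2 difference was 0.90, and over all libraries left out in turn it ran up to 2.02.

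**Figure D4:**
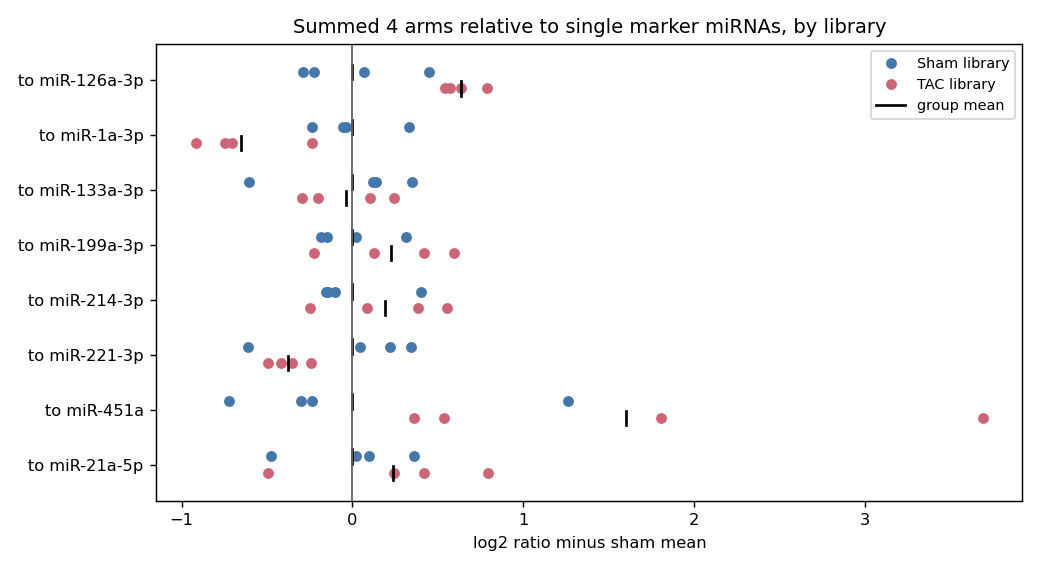
Log2 ratio of the summed 4 arms to each of 8 marker miRNAs, minus the sham mean, in each sham and TAC library, with group means as black ticks. The groups separate for miR-126a-3p, where the TAC mean lies at 0.63. With miR-126a-3p alone as reference in edgeR, the median log2 fold change of all 223 tested miRNAs was 0.50. The groups overlap for the other 7, where the TAC mean of miR-1a-3p lies at -0.65.

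Of the summed marker lists of other cell types, the endothelial one, both arms of miR-126a, separated the groups. By library totals miR-126a-3p and miR-126a-5p were lower in every TAC library. Their sum ran from 49248 to 72051 CPM in sham and from 29274 to 34557 in TAC. The stromal miR-199b-5p and the leukocyte miR-142a-5p were also lower in every TAC library, and the leukocyte miR-155-5p was higher in every one. Over all tested miRNAs, 27.4% had every TAC library below sham and 3.59% had every one above. The 5 cardiomyocyte miRNAs summed to 160712 to 198133 CPM in sham and 194455 to 245941 in TAC. The 5 stromal miRNAs, without the cluster, summed to 6207 to 8428 and 3838 to 7405 CPM. The 3 erythroid ones summed to 418 to 1503 and 43.8 to 549.97, and the 5 leukocyte ones to 1305 to 2455 and 1051 to 1448. In each of these sums the groups overlapped. None of the 27 marker miRNAs was at 0 in any library, the lowest count being 15. The part of these levels in the values of the cluster was not tested.

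With the reference scaling in edgeR, 4 of 5 cardiomyocyte, 0 of 2 endothelial, 0 of 4 tested stromal, 0 of 2 tested erythroid and 1 of 4 tested leukocyte miRNAs were called higher, and 0 of them lower, with median log2 fold changes of 0.93, -0.010, 0.57, -0.62 and 0.13 beside 0.61 over all. All 5 cardiomyocyte and 3 of the stromal miRNAs had an adjusted p below 0.05 with a higher level in TAC. Over all tested miRNAs, 36.8% were called higher and 63.7% were higher at that adjusted p. Of 7 other miRNAs known to act on the smooth muscle phenotype, 3 were called higher, miR-222-3p at 1.24 (adjusted p = 0.00131), miR-221-3p at 1.12 (adjusted p = 0.00137) and miR-31-5p at 0.89 (adjusted p = 0.00209), all from edgeR. miR-26a-5p at 0.68 and miR-146a-5p at 0.70 had an adjusted p below 0.05 under the fold change of 1.7, miR-21a-5p (0.60, adjusted p = 0.0723) and miR-10a-5p (0.064, adjusted p = 0.711) did not. The 3 of 7 called stood beside 36.8% of all tested miRNAs, and the median of the 7 was 0.70. With TMM 0 of these 7 were called in edgeR, and by library totals 1 was called lower, miR-10a-5p. Its level by library totals ran from 2342 to 2839 CPM in sham and from 1180 to 1759 in TAC. It was thus lower in every TAC library, as were 27.4% of all tested miRNAs. The 7 summed to 53006 to 76663 CPM in sham and 49551 to 64123 in TAC, which overlapped.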

How the data were processed

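The authors deposited, for each small RNA library of isolated cardiomyocytes, a table that lists, for each mature mouse miRNA, the raw count of its tags as a whole number. Libraries were made from 1 µg of total RNA and sequenced by a provider. The labels name mm10 and StringTie 1.3.1 with no role. The aligner, the miRNA reference and the handling of tags that match several miRNAs are not given in the sources used here. Groups and replicate numbers came from the labels, and no library was a copy of another.

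Counts were tested with edgeR 4.0.16 in R 4.3.3 (estimateDisp, glmQLFit, glmQLFTest, group as the only term) over 223 miRNAs whose mean count exceeded 100, with Benjamini-Hochberg adjustment over all of them. Library sizes were miRNA totals, multiplied by 0.537 in TAC. A miRNA was called when its adjusted p lay under 0.05 and its fold change over 1.7. Each standard error is the size of the log2 fold change divided by sqrt(F). Single values were compared by two-sided exact permutation over 70 arrangements. Python 3.11.15 and DESeq2 1.42.0 were also used. The fits were also run on simulated counts, with equally many miRNAs raised and lowered and both references unchanged. That setting cannot tell which scaling suits these libraries. Replicates are separate hearts. The Wilson intervals are built from the count of 1 library and cover counting error only. No molecular identifiers are described, and the intervals make no allowance for amplification copies. Alternatives were other scalings, count filters, fold thresholds, DESeq2, a replicate block and leaving out each library.

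Named miRNAs were the 4 arms, the references, the markers, and the 3 miRNAs with the smallest SD of the log2 ratio (counts plus 0.5) to miR-143-3p and to miR-145a-5p. Members and lists were chosen with earlier results of these data known. Mature sequences of the 4 arms are not reported here.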

Additional observations from a re-analysis of the deposited data

Results flagged for a closer look

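Among 34 groups of 4 libraries examined for the arms, their sum and the ratios, 2 held a library far from the other 3 of its group by Dixon's ratio, and chance alone flags about 1 group in 20. The ratio of the summed 4 arms to miR-214-3p was 869 in sham mouse 4 and 590.0 to 613 in the other sham mice. The ratio of the summed 4 arms to miR-451a was 441 in sham mouse 1 and 112 to 156 in the other sham mice.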

How the results depend on the processing

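Scaling moved the cluster most. miR-143-3p was called higher at a log2 fold change of 0.79 and lost the call with TMM (0.099), DESeq2 with its own size factors (0.15), 1 reference factor per library (0.76) and miR-126a-3p alone as reference (0.69), and turned to -0.11 by library totals. miR-145a-3p, at 0.92, lost it with TMM (0.23), DESeq2 with its own size factors (0.28) and library totals (0.020). miR-143-5p passed the fold change of 1.7 with miR-19b-3p alone as reference (0.84) and turned to -0.16 by library totals. miR-145a-5p turned to -0.22 with TMM, -0.43 by library totals and -0.17 with DESeq2 and its own size factors. Of the 4 arms, 2 were called higher, 0 with TMM, library totals, DESeq2 with its own size factors or a fold change above 2, 1 with a factor per library or miR-126a-3p alone, and 4 with no fold change required.

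The difference of the summed share, -0.12, turned to 0.78 with the reference scaling and 0.088 with TMM. Of the 24 marker miRNAs tested, 8 were called higher and 0 lower, against 0 and 2 with TMM, 0 and 4 by library totals and 2 and 1 with DESeq2 and its own size factors. Of all 223 tested, the calls came to 82 higher with 2 lower, to 3 and 10 with TMM, 1 and 23 by library totals, 5 and 9 with DESeq2 and its own size factors, and 127 and 2 of 695 with no filter on counts.

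With each library left out, the log2 fold changes ran from 0.69 to 0.87 for miR-143-3p, 0.66 to 0.89 for miR-143-5p, 0.38 to 0.57 for miR-145a-5p and 0.81 to 1.04 for miR-145a-3p, with 1 to 3 arms called, and the summed share from -0.16 to -0.076. The ratio of the miR-143 arms ran from -0.063 to 0.14 and that of the sum to miR-133a-3p from -0.24 to 0.078. With miR-145a-5p alone as numerator, the differences to miR-199a-3p, miR-214-3p and miR-21a-5p turned to -0.090, -0.13 and -0.078. The cause of these shifts was not tested.

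Replicate numbers are shared between the groups, and the methods speak of 4 pairs of sham and TAC animals without saying what pairs them. Same-numbered libraries deviated together by correlations of 0.17, -0.37, 0.31 and -0.22, and 1 of 4 correlated best with its own number, so the numbers were not used as pairs. With the number as a replicate block, the log2 fold changes were 0.79, 0.73, 0.46 and 0.92 for miR-143-3p, miR-143-5p, miR-145a-5p and miR-145a-3p, 2 arms were called higher, the adjusted p of miR-145a-5p from edgeR was 0.0741, and 1 marker was called lower, against 0 without the block. Adding miR-145b to miR-145a was not run, since it has no entry in the tables.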
